A study of Mus musculus with 10 samples.

Results

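Genes of the circadian clock were followed in the gastrocnemius, a calf muscle, of mice that lost myostatin as adults and of control mice. The 10 members were fixed by name as Arntl, Clock, Per1, Per2, Per3, Cry1, Cry2, Nr1d1, Nr1d2 and Dbp. A probe set was taken where the platform annotation gave it 1 of these symbols and no other, which gave 23 probe sets of the 45101 on the array. Of these, 15 had a mean log2 intensity of at least 4 over all arrays and entered the test with 21139 others, and each of the 10 genes had at least 1 of them. The 5 Floxed_Mstn mice carried myostatin genes flanked by sites for Cre recombinase and form the knockout group. The 5 WT_Mstn mice had unmodified myostatin genes. All animals were males of 7.5 months on a C57BL/6 background, carried the CAGG-CreER transgene, and received 8 tamoxifen injections from 4 months of age. CAGG-CreER is a Cre recombinase that tamoxifen activates, driven by a promoter active in most cell types and not only in muscle fibres, and the controls shared both the transgene and the drug. No probe set carries the name Mstn, so the genotype labels have no check from that transcript. The labels do not give the time of day at which tissue was taken, and they do not say whether the mice came from separate litters or cages, so p-values measure only the spread between these mice.

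The clock is a feedback loop of transcription that runs in nearly every cell, with a period of about a day. ARNTL (also called BMAL1) and CLOCK form a dimer that activates the Per and Cry genes, whose protein products return to the nucleus and repress that dimer. A second loop runs through Nr1d1 and Nr1d2, which encode the repressors REV-ERB alpha and beta and act on Arntl. DBP is an output factor that carries the rhythm to other genes. In a tissue sampled through the day, Arntl peaks at the opposite time from Dbp, Nr1d1 and the Per genes. In skeletal muscle the clock sets daily rhythms of fuel use.

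The loop closes through short DNA elements, and promoter windows that hold them are shown here because members act on one another through elements of these kinds. The windows are RefSeq sequence of GRCm38.p6, 300 bases long (250 before a transcript start and 50 after it), printed 5′ to 3′ on the gene's strand with matches in capitals. The elements of the loop were searched on both strands. They were the E-box CACGTG, bound by the ARNTL and CLOCK dimer, and the D-box TTANGTAA, bound by DBP. A further one was ANTAGGTCA, bound by REV-ERB and ROR proteins. The cAMP response element TGACGTCA was searched as well and is not one of these. The table held 13 such windows for 9 members, and Per2 was not among them.
Per1, chr11:69098699-69098998, plus strand, E-box in capitals: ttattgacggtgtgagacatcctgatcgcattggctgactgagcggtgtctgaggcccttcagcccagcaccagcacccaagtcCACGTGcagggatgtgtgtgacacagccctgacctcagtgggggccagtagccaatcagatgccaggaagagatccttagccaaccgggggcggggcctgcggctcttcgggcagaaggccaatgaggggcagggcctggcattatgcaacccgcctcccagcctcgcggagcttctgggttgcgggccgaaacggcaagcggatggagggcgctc
Cry1, chr10:85185005-85185304, minus strand, E-box in capitals: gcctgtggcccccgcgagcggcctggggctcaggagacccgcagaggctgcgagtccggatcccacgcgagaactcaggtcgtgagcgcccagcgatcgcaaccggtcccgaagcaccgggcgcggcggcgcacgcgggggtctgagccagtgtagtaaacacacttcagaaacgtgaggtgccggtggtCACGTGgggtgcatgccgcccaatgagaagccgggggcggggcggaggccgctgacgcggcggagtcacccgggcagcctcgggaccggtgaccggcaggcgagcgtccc
Per3, chr4:151044616-151044915, minus strand, D-boxes in capitals: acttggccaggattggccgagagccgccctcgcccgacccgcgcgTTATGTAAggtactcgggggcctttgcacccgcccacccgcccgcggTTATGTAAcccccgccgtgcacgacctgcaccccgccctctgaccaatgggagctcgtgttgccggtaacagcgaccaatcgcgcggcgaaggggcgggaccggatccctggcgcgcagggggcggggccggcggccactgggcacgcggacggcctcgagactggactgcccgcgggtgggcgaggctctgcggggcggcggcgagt
Arntl, chr7:113207261-113207560, plus strand, REV-ERB and ROR element in capitals: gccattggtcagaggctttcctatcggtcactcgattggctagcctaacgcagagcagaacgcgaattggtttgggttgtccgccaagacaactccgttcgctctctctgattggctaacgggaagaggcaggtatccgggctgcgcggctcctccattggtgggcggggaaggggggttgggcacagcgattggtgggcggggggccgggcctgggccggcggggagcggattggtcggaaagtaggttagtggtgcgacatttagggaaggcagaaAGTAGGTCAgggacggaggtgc
The E-box stood in 2 of the 13 windows, those of Per1 and Cry1, against 7.15% of all 32851 windows of this length. The D-box stood in the Per3 window only, at bases 46 to 53 and 93 to 100, against 2.32% of all windows. The REV-ERB and ROR element stood in 1 of the Arntl windows, at bases 279 to 287, against 0.661% of all windows. No member window held TGACGTCA, which 1.79% of all windows hold. No matches overlapped. These are matches of letters within a short window, and nothing was measured on binding.

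No clock gene passed the test between the groups. Knockout and control arrays were compared with limma on log2 intensity, and p-values were adjusted by Benjamini-Hochberg across the 21154 probe sets, with calls made at 0.05. Of the 15 clock probe sets 0 passed, where 0.0993% of all probe sets did, and their adjusted p ran from 0.646 to 0.994. At unadjusted p under 0.05 there was 1 clock probe set (Nr1d2), or 6.67% of the 15, against 7.69% of all probe sets. In none of the 15 were the groups apart without overlap, against 2.06% of all probe sets. Taking the brightest probe set of each gene, 4 genes had higher and 6 had lower mean values in Floxed_Mstn muscle, with a median difference of -0.06 (log2) beside a median of -0.0049 over all 10704 genes tested. Of all genes tested, 48.5% had higher mean values in Floxed_Mstn muscle. In bulk tissue, fewer cells of a type and less RNA per cell cannot be told apart. Levels below are log2 of the deposited intensity, differences are Floxed_Mstn minus WT_Mstn, and intervals are 95% intervals from the fit.

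**Figure D1:**
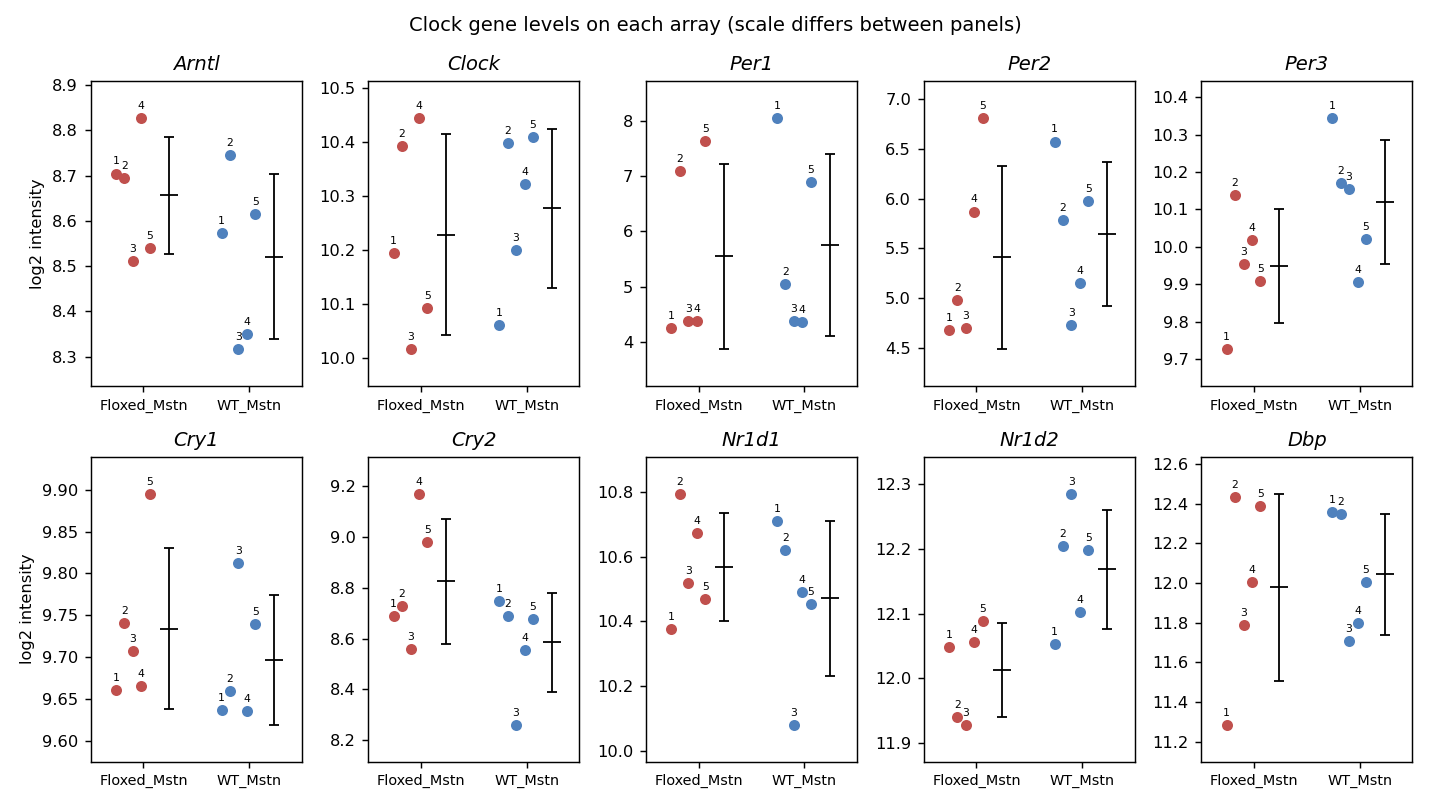
Log2 intensity of each clock gene (brightest probe set) on each of 10 arrays, Floxed_Mstn in red and WT_Mstn in blue, with replicate numbers above the points, and bars giving the mean and SD of 5 arrays. The groups overlap in every panel, and the Per1 axis spans 4.25 to 8.05.

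The activator arm differed by less than its spread. Arntl (probe set 1425099_a_at), the subunit without which the clock stops in mice, had 8.70, 8.70, 8.51, 8.83 and 8.54 in Floxed_Mstn muscle, against 8.57, 8.75, 8.32, 8.35 and 8.62 in WT_Mstn muscle. The highest array was a knockout and the 2 lowest were controls, with the rest intermixed. The difference was 0.14 ± 0.10 (SE, n = 5 each), with an interval from -0.10 to 0.37 and an adjusted p of 0.858 (limma). Its other probe set was too dim to test. Clock, the partner of ARNTL, had 10.19, 10.39, 10.02, 10.44 and 10.09 in Floxed_Mstn muscle, against 10.06, 10.40, 10.20, 10.32 and 10.41 in WT_Mstn muscle. Both groups covered nearly the same range, and the difference was -0.05, with an interval from -0.29 to 0.19 and an adjusted p of 0.983 (limma). Of the 2 dimmer Clock probe sets tested, 1418660_at gave 0.17 and 1435775_at gave 0.08, and neither passed.

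Per1 varied most of all members, and its high and low arrays occurred in both groups. Per1 encodes a repressor of the loop that is also induced quickly by hormonal and other stimuli in many tissues. Its single probe set (1449851_at) had 4.25, 7.09, 4.38, 4.37 and 7.64 in Floxed_Mstn muscle, against 8.05, 5.04, 4.39, 4.37 and 6.89 in WT_Mstn muscle. The values fell into a low set of 5 arrays within 0.13 of each other, 1 array at 5.04 and 4 arrays above 6, and the 4 high arrays were 2 knockouts and 2 controls. From the lowest to the highest array the range was 13.9-fold. The low set lay little above the dim part of the scale. Array medians were 3.37 to 3.65, and 55.0% to 55.6% of all probe sets on an array were below 4.4. The fold may therefore be compressed at that end, which was not tested. The group difference was -0.20, with an interval from -2.31 to 1.91 and an adjusted p of 0.991 (limma).

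Per2 and Per3, the other Period genes, overlapped between groups as well. Per2 (1417602_at) had 4.68, 4.98, 4.70, 5.87 and 6.81 in Floxed_Mstn muscle, against 6.57, 5.78, 4.73, 5.15 and 5.98 in WT_Mstn muscle. Floxed_Mstn 5 and WT_Mstn 1 were highest, and both were also high for Per1. The difference was -0.23, with an interval from -1.29 to 0.82 (limma adjusted p = 0.980). Per2 lies on chromosome 1, the chromosome that carries Mstn, and whether this location bears on its values was not tested. Per3 (1421087_at) had 9.73, 10.14, 9.95, 10.02 and 9.91 in Floxed_Mstn muscle, against 10.34, 10.17, 10.15, 9.91 and 10.02 in WT_Mstn muscle. Its 3 highest arrays were controls, but the 2 other controls lay among the knockouts. The difference was -0.17, with an interval from -0.40 to 0.06 (limma adjusted p = 0.786), and the probe sets 1442243_at and 1441445_at gave -0.21 and 0.09.

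The cryptochromes, which hold the dimer inactive together with the PER proteins, differed from each other in how much they varied. Cry1 (1433733_a_at) had 9.66, 9.74, 9.71, 9.67 and 9.90 in Floxed_Mstn muscle, against 9.64, 9.66, 9.81, 9.63 and 9.74 in WT_Mstn muscle. All 10 arrays lay within 0.26, a range of 1.20-fold. The difference was 0.04, with an interval from -0.12 to 0.20 (limma adjusted p = 0.978). Cry2 (1426383_at) had 8.69, 8.73, 8.56, 9.17 and 8.98 in Floxed_Mstn muscle, against 8.75, 8.69, 8.26, 8.55 and 8.68 in WT_Mstn muscle. The 2 highest arrays were knockouts and the lowest was a control. The difference of 0.24 was the largest among the brightest probe sets of the 10 genes, with an interval from -0.06 to 0.54 and an adjusted p of 0.763 (limma).

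The REV-ERB repressors had differences of opposite sign, neither past the threshold. Nr1d1 (1426464_at) had 10.38, 10.79, 10.52, 10.67 and 10.47 in Floxed_Mstn muscle, against 10.71, 10.62, 10.08, 10.49 and 10.46 in WT_Mstn muscle. The control WT_Mstn 3 was lowest and the other arrays were intermixed, with a difference of 0.10 and an interval from -0.19 to 0.38 (limma adjusted p = 0.958). Nr1d2 (1416958_at) had 12.05, 11.94, 11.93, 12.06 and 12.09 in Floxed_Mstn muscle, against 12.05, 12.20, 12.29, 12.10 and 12.20 in WT_Mstn muscle. Of the controls, 4 lay above every knockout, while WT_Mstn 1 lay among the knockouts. The difference of -0.16 ± 0.07 (SE, n = 5 each) had the lowest p of the members, with an unadjusted p of 0.0486, an interval from -0.31 to -0.0012 and an adjusted p of 0.646 (limma).

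Dbp, the output factor, was measured by 2 bright probe sets. The brighter (1438211_s_at) had 11.29, 12.43, 11.79, 12.00 and 12.39 in Floxed_Mstn muscle, against 12.36, 12.35, 11.71, 11.80 and 12.01 in WT_Mstn muscle. Floxed_Mstn 1 was lowest, and the 4 highest arrays were 2 knockouts and 2 controls. The dimmer (1418174_at) had 7.51, 9.14, 7.93, 8.85 and 9.25 in Floxed_Mstn muscle, against 9.29, 9.16, 7.43, 8.32 and 8.74 in WT_Mstn muscle. Both ordered the arrays alike, at r = 0.927 (Pearson) and rho = 0.891 (Spearman) over 10 arrays (permutation p = 9e-05 and 0.00116, adjusted over 7 such pairs of probe sets 0.00063 and 0.00812), and r was 0.927 without the 2 arrays farthest from the median. The group differences were -0.06 (interval -0.58 to 0.45) and -0.05 (interval -1.03 to 0.93), and neither passed (limma adjusted p = 0.990 and 0.994).

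**Figure D2:**
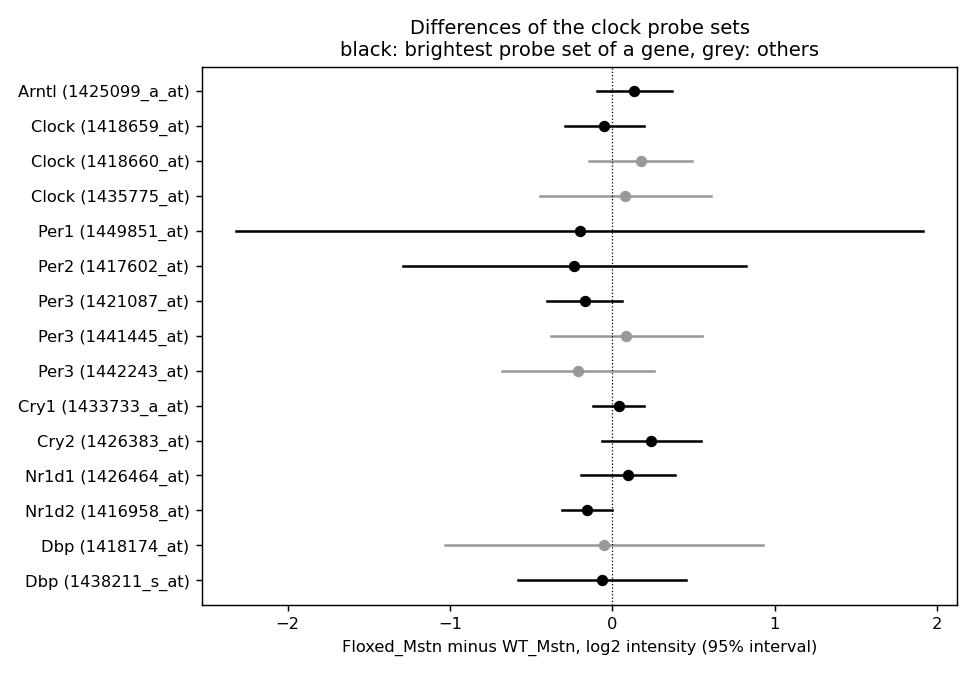
Difference between Floxed_Mstn and WT_Mstn means (log2 intensity, horizontal axis) for the 15 clock probe sets tested, with 95% intervals from limma, the brightest probe set of each gene in black and the others in grey. Every interval but that of Nr1d2 (-0.31 to -0.0012) includes 0, and that of Per1 is the widest.

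The spread between mice of one group was uneven across the loop. The SD within groups was 1.66 for Per1, 0.82 for Per2 and 0.40 for the brighter Dbp probe set, against 0.09 for Cry1 and 0.08 for Nr1d2 (log2). The median over all probe sets tested was 0.24. Spread differs with brightness among the probe sets tested, so each clock probe set was also set beside those within 0.5 of its own mean. On that scale 99.6% of similar probe sets varied less than Per1, 98.5% and 98.7% less than the brighter and the dimmer Dbp probe set, and 90.7% less than Per2. The activators were not in this upper range, with 22.6% for Arntl and, from the brightest to the dimmest Clock probe set tested, 63.9%, 74.5% and 21.0%. For Cry1 the share was 6.59%, and for Cry2 57.1%. Nr1d1 lay at 82.8% and Nr1d2 at 26.2%. The Per3 probe sets tested lay at 53.8%, 82.1% and 49.5%, from brightest to dimmest.

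**Figure D3:**
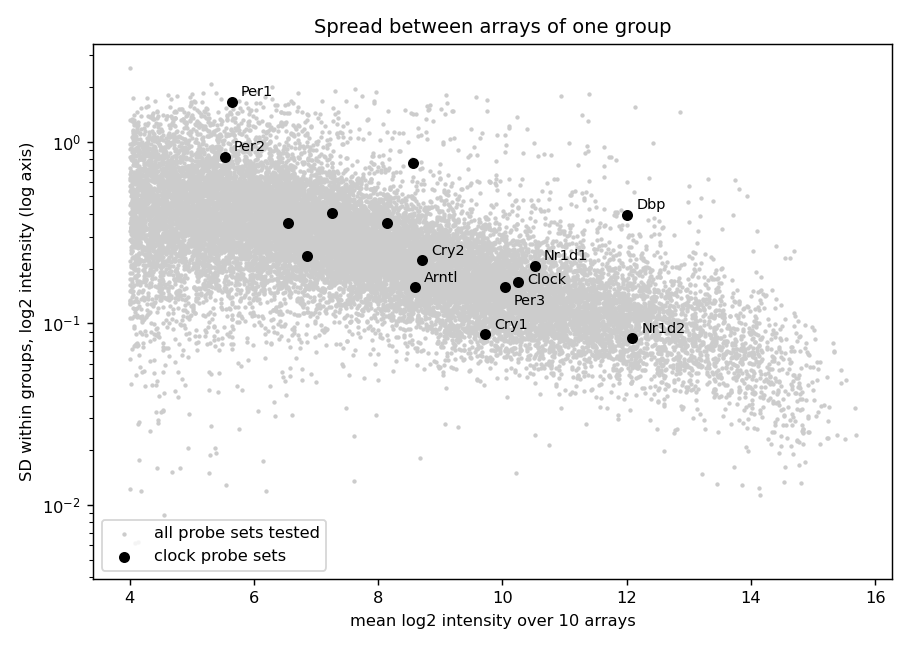
SD within groups (log2 intensity, log axis) against mean log2 intensity over 10 arrays, for the 21154 probe sets tested in grey and the 15 clock probe sets in black, with the brightest of each gene named. Per1 and Dbp lie at the upper edge for their brightness, and Cry1 near the lower edge.

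Part of this spread followed a technical measure of the arrays. The first principal component of the tested probe sets (53.6% of their variance) followed 7 bacterial hybridisation control probe sets, for RNA added to each array. Its r with their mean was 0.968 in absolute value, as the sign of a component is arbitrary. These controls ranged from 12.84 to 13.46 on Floxed_Mstn arrays and from 12.97 to 13.34 on WT_Mstn arrays (log2). Over 10 arrays the controls' level correlated with Per2 at r = -0.876 and rho = -0.842 (permutation p = 0.0007 and 0.00383, adjusted over 10 members 0.007 and 0.0191), and r was -0.845 without the 2 arrays of most extreme controls. For Dbp r was -0.828 and rho -0.879 (permutation p = 0.00273 and 0.00157, adjusted 0.0136 and 0.0157), and r was -0.829 without 2 arrays. Arntl had r of -0.297 and rho of -0.285 (permutation p = 0.403 and 0.427, adjusted 0.575 and 0.610), and its r was -0.495 without 2 arrays. For Per1, whose arrays fall into separate sets, no r is given. Its rho was -0.770 (permutation p = 0.0124, adjusted 0.0413), though its 5 lowest arrays lay within 0.13 of each other. The 3 arrays of highest controls (Floxed_Mstn 1, Floxed_Mstn 3 and WT_Mstn 3) were all among those 5. With the controls as a covariate the SD was 1.22 for Per1, 0.43 for Per2 and 0.24 for the brighter Dbp probe set. In that fit no member passed either, and Cry2 had a difference of 0.27 (interval 0.06 to 0.48, adjusted p = 0.283, limma). The Nr1d2 interval included 0 there (-0.31 to 0.0019, adjusted p = 0.392, limma).

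Members were also compared with one another across the 10 arrays. Of 45 pairs, 0 passed after adjustment for either measure (lowest adjusted permutation p = 0.269 for Pearson's r and 0.212 for Spearman's rho), while 7 had an unadjusted p under 0.05 for r and 5 for rho. The lowest p for rho was that of Per1 and Dbp, with rho of 0.830 (permutation p = 0.00472, adjusted 0.212). Per1 and Per2 had rho of 0.685 (permutation p = 0.0355, adjusted 0.407). No r of the measured values is given for pairs with Per1, whose arrays fall into separate sets, and its low arrays included the 3 of highest controls. After group and hybridisation controls were taken out, r was 0.37 for Per1 and Dbp and 0.23 for Per1 and Per2. Among pairs without Per1, Arntl and Cry2 had the highest r, at 0.720 with rho of 0.648 (permutation p = 0.0171 and 0.0486, adjusted 0.269 and 0.407). It was 0.447 without the 2 arrays of most extreme Arntl, on which it partly rests. Dbp and Per2 had r of 0.684 and rho of 0.697 (permutation p = 0.0301 and 0.0306, adjusted 0.269 and 0.407). Their r was 0.534 without 2 arrays and -0.16 after group and hybridisation controls were taken out. Dbp and Per3 had r of 0.649 and rho of 0.430 (permutation p = 0.0416 and 0.219, adjusted 0.269 and 0.702), and r was 0.232 without the 2 arrays of most extreme Per3 but 0.772 after group and hybridisation controls were taken out. Dbp and Nr1d1 had r of 0.645 and rho of 0.661 (permutation p = 0.0414 and 0.0441, adjusted 0.269 and 0.407), with 0.626 without 2 arrays. Arntl and Nr1d1 had r of 0.632 and rho of 0.418 (permutation p = 0.0474 and 0.234, adjusted 0.269 and 0.702), with 0.311 without 2 arrays. Arntl and Nr1d1 peak at opposite times in a sampled day, as do Arntl and Dbp. Arntl and Dbp had r of 0.249 and rho of 0.236 (permutation p = 0.489 and 0.517, adjusted 0.798 and 0.931), with -0.09 without 2 arrays.

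**Figure D4:**
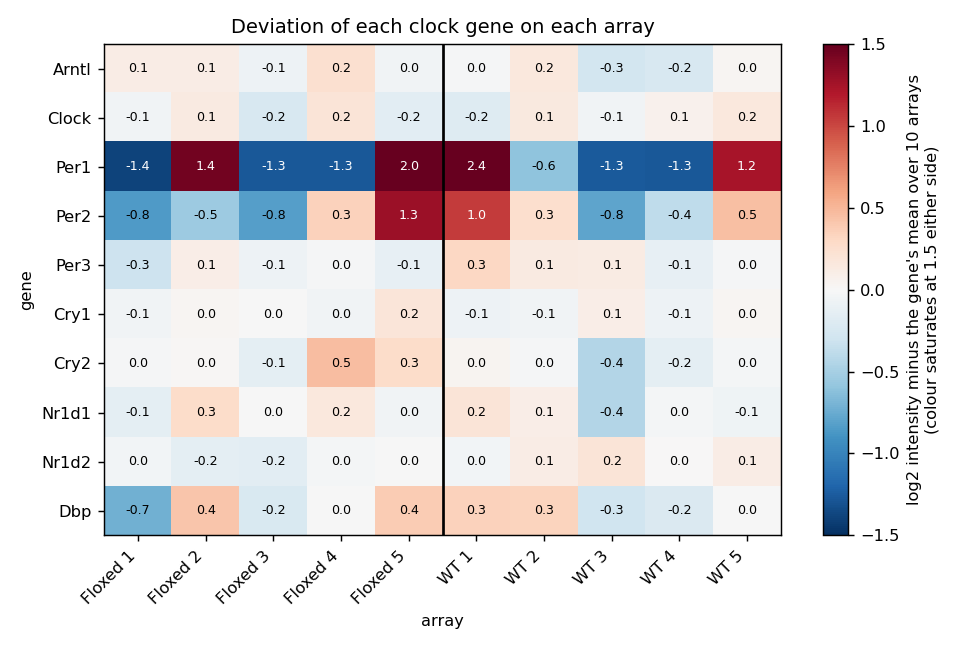
Log2 intensity of each clock gene (rows, brightest probe set) on each array (columns, Floxed_Mstn left and WT_Mstn right of the line) minus the gene's mean over 10 arrays, red for higher and blue for lower. The strongest colours are in the Per1 and Per2 rows and occur in both groups.

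Genes outside the clock list whose pattern over the 10 arrays was most like a member's were named by Pearson's r over 10274 genes, as a description without a test. For Dbp these were Clcn1 (0.98), the chloride channel of the muscle membrane, Llgl1 (0.97), Atad3a (0.97), a mitochondrial membrane protein, Mrtfa (0.96), Pfn1 (0.96), an actin-binding protein, and Samm50 (0.96), part of the mitochondrial outer membrane sorting machinery. Their r with the hybridisation controls lay between -0.86 and -0.82, close to that of Dbp, and after group and controls were taken out their r with Dbp was 0.88 to 0.95. The genes were picked for high r with Dbp on these same arrays, so the latter values are no independent check. The most opposed to Dbp were Atxn3, Ppm1b, Zfp81, Arhgef11, Vwa3a and Tpm1 (r of -0.93 to -0.90). For Arntl the most alike were Cdyl2 (0.96), Nfu1 (0.93), an iron-sulfur cluster protein, Haus7 (0.92), Bend3 (0.92), Rps6ka3 (0.90) and Rnf149 (0.90), and the most opposed were Caprin1, Vamp4, Slc1a4, Rragc, Cyp26b1 and Psmb4 (r of -0.91 to -0.85).

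The arrays that were high for Per1 were high for further genes, which were looked up after the Per1 values were seen. Slc25a25, a mitochondrial carrier of ATP-Mg and phosphate, was closest to Per1. It had 6.32, 8.50, 6.63, 6.24 and 8.66 in Floxed_Mstn muscle, against 8.98, 6.50, 6.33, 6.62 and 8.67 in WT_Mstn muscle. Coq10b, a coenzyme Q binding protein, had 10.23, 11.01, 10.17, 10.31 and 10.99 in Floxed_Mstn muscle, against 11.22, 10.38, 10.47, 10.25 and 11.05 in WT_Mstn muscle. Both genes were highest on Floxed_Mstn 2, Floxed_Mstn 5, WT_Mstn 1 and WT_Mstn 5, the 4 arrays that were highest for Per1. They were picked for likeness to Per1 on these same arrays, so the shared high arrays follow from that choice. Their r with the hybridisation controls was -0.64 and -0.67, over values that also fall into separate sets. Tob2, Add1, Plekhf1 and Id1 completed the 6 nearest. Among the 16 other clock and clock-output genes tested, 1 had the same 4 highest arrays, against 174 of 10703 genes (1.63%). That gene was Ciart, a repressor of the ARNTL and CLOCK dimer, with 3.17, 5.89, 3.17, 3.94 and 5.42 in Floxed_Mstn muscle, against 6.24, 3.91, 3.13, 3.53 and 4.32 in WT_Mstn muscle. Among 16 glucocorticoid-responsive genes other than Per1, Cebpb had the same 4, and none of 9 other members or 19 rhythmic muscle output genes did. No group difference passed for these genes, with adjusted p of 0.991 for Slc25a25, 0.978 for Coq10b, 0.993 for Ciart and 0.985 for Cebpb (limma).

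**Figure D5:**
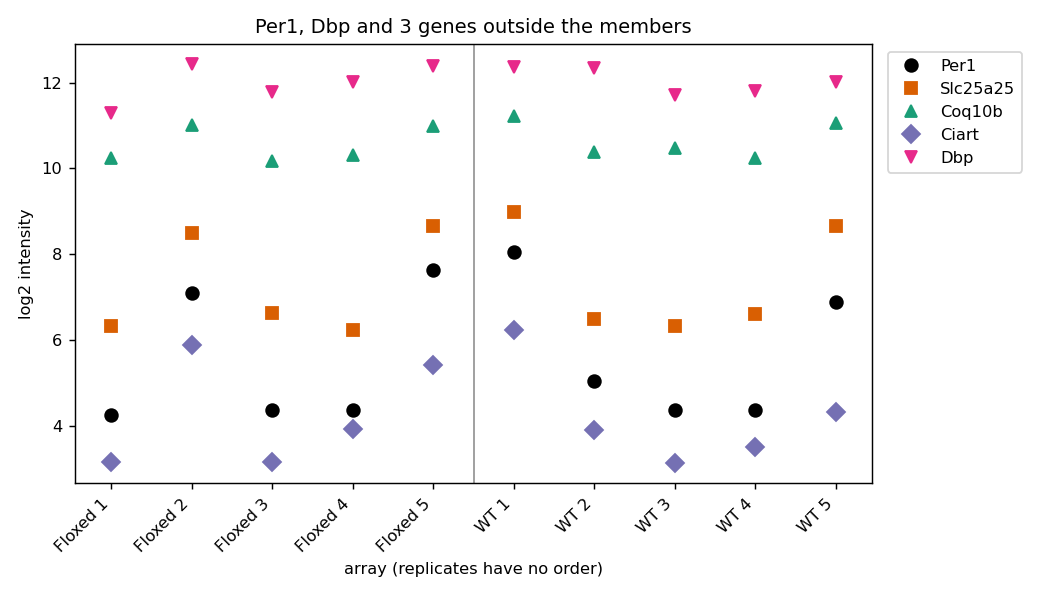
Log2 intensity of Per1, Dbp, Slc25a25, Coq10b and Ciart on each of the 5 Floxed_Mstn (left of the line) and 5 WT_Mstn arrays. Per1, Slc25a25, Coq10b and Ciart are highest on the same 4 arrays, 2 in each group. Slc25a25, Coq10b and Ciart were named because of their likeness to Per1 on these arrays.

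Further clock and clock-linked genes were compared between the groups in the same fit, from lists chosen with earlier results of these data known. Over all genes tested, 48.5% had higher values in knockouts. Of 20 further clock and clock-output genes 16 were tested and 0 passed, with 6 higher and 10 lower in knockouts and a median difference of -0.01. Those of lowest p were Hlf (0.22, adjusted p = 0.573, limma), Tef (0.16, adjusted p = 0.715) and Nfil3 (0.39, adjusted p = 0.795), transcription factors of the family of Dbp or its opponent, and Rora (0.21, adjusted p = 0.717), an activator of Arntl. Of 19 rhythmic muscle output genes 0 passed, with 8 higher and 11 lower and a median of -0.02. The lowest p were those of Tbc1d1 (-0.30), Pfkfb3 (0.43), Cdkn1a (-0.31) and Pparg (-0.39), with adjusted p of 0.570 to 0.806 (limma). Of 17 glucocorticoid-responsive genes, a list that includes Per1, 0 passed, with 12 higher and 5 lower and a median of 0.13. Of these, 5 were at an unadjusted p under 0.05, all with higher values in knockouts, where 8.90% of all genes were at that level in either direction. Fbxo32, a ubiquitin ligase of muscle atrophy, had 12.42, 12.43, 12.18, 12.33 and 11.95 in Floxed_Mstn muscle, against 11.73, 11.73, 11.87, 11.74 and 11.87 in WT_Mstn muscle. Its groups did not overlap, and its difference was 0.47 (interval 0.25 to 0.70, limma adjusted p = 0.195). Gadd45a had 0.67 (adjusted p = 0.243), Glul, glutamine synthetase, 0.24 (adjusted p = 0.399) and Trim63, another ubiquitin ligase, 0.28 (adjusted p = 0.469). These genes were named for having the lowest p of the list. The 5 genes with lower values were Klf15 (-0.13), Mt1 (-0.15), Mt2 (-0.06), Foxo1 (-0.04) and Per1 (-0.20). A part of glucocorticoids in these values was not tested.

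The tissue label was met by its markers, as all 10 skeletal muscle fibre markers were tested with a median level of 15.13 (log2). Markers of other cells had mostly lower values in knockouts. These included all 10 fibroblast and all 8 tendon markers (medians -0.42 and -0.95), 1 and 0 of them past the threshold. Over all 10704 genes tested, 14 passed. At unadjusted p under 0.05 (limma) were 7 of the fibroblast and 8 of the tendon markers, against 8.90% of all genes in either direction. The summed fibroblast intensity ran from 18342 to 25170 on Floxed_Mstn arrays, against 27579 to 33989 on WT_Mstn arrays. All 9 macrophage, 6 smooth muscle and 5 Schwann cell markers tested and 8 of 9 endothelial markers also had lower values, none past the threshold. At unadjusted p under 0.05 (limma) were 0, 4, 2 and 3 of these. Higher values were found for 2 of 5 adipocyte markers tested, the 1 blood marker tested and 9 of the 10 fibre markers. The part of these cell types in the clock values was not tested.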

How the data were processed

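RNA from 10 gastrocnemius muscles was hybridised to arrays after extraction with Trizol and labelling with NuGEN kits, per the labels' protocols. The authors deposited 1 linear intensity per probe set and array, made with GCRMA (background correction from probe sequence, normalization between arrays, summary per probe set) per the submitters' processing notes; its version is not given in the sources used here. GCRMA holds dim probe sets in a narrow band, so differences there are compressed. Scanner files were not used here. Arrays have no read depth, and their number limits the precision.

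Deposited intensities were put on the log2 scale. Probe sets with a mean of at least 4 were kept, 64 array controls were left out, and 21154 were tested with limma 3.58.1 in R 4.3.3 (lmFit, eBayes, two-sided) after a test on simulated data. Gene names came from the platform annotation (34958 with 1 symbol, 932 with several, 9211 unlisted), and those with several symbols were not used. The brightest probe set represents a gene. Correlations used 100000 permutations (Python 3.11.15, numpy 2.4.6).

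The members and lists were chosen with earlier results of these data known. Named were all members, list genes past the threshold or the 4 of lowest p, and the 6 genes most and least like Dbp and Arntl, without unnamed transcripts. Genes like Per1 were added after its values were seen. Alternatives covered filters, floor, normalization, variance model, array weights, replicate block, hybridisation controls, probe set choice and each array left out. Figures were drawn with matplotlib 3.10.9.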

Additional observations from a re-analysis of the deposited data

Results flagged for a closer look

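Each tested clock probe set was searched in each group of 5 arrays for an array far from the rest (Dixon's test). Of 30 such groups 0 held one, where chance gives about 1 in 20, or 1.5. The 2 high Per1 arrays in each group were not picked out by this test, because each lies near another high array.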

How the results depend on the processing

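No clock gene passed the threshold under any of the 21 alternatives run, and 0 of 45 pairs passed under the 3 alternatives in which pairs were retested. The count over all probe sets, 21, was 11 with no filter, 34 after quantile normalization, 58 with a variance trend and robust fit, 67 with array weights, 99 with hybridisation controls as a covariate and 5 without the 3 arrays of highest controls. With the replicate number as a block it was 1, and deviations of same-numbered arrays correlated between -0.51 and 0.62, so the numbers are not taken to pair the mice. With each array left out it ran from 1 to 17, with 1 to 3 calls without any of WT_Mstn 2, 3, 4 or 5 or Floxed_Mstn 1, 2, 3 or 4. The causes of these changes were not tested.

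The differences of 6 members turned sign under some alternatives, none of them past the threshold. Without the 3 arrays of highest controls Clock had 0.013, Per1 0.28, Per2 0.016 and Dbp 0.15. Clock had 0.068 by the mean of its probe sets and Dbp 0.036 with array weights. With each array left out Clock ran from -0.10 to 0.0035, Per1 from -0.72 to 0.37, Cry1 from -0.0029 to 0.066, Nr1d1 from -0.0018 to 0.16 and Dbp from -0.18 to 0.11. Arntl and Cry2 stayed higher and Per3 and Nr1d2 lower in Floxed_Mstn muscle under all alternatives run. Per2 ran from -0.58 to -0.0018 with each array left out, and was -0.0018 without WT_Mstn 1. The r of Per2 and Dbp was -0.16 after group and hybridisation controls were taken out. Per1 and Per2 have no value with a filter at a mean of 6, which both fall under. Signal over background limits Per1 and Ciart, whose lowest arrays had low values, 4.25 and 3.13 (log2).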

Other observations

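The 8 clock probe sets under the filter had mean log2 intensities of 2.13 to 3.87. They were 1 each for Arntl, Clock and Nr1d2, 2 for Per2 and 3 for Per3. The Nr1d2 probe set 1416959_at was the brightest of them, with 3.67, 3.93, 2.93, 4.52 and 4.32 in Floxed_Mstn muscle, against 4.00, 3.93, 3.23, 3.93 and 4.21 in WT_Mstn muscle, and its groups overlapped.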
